A study of Mus musculus with 23 samples.

Results

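The genes described here are 10 that mark the alveolar macrophage, the resident phagocyte of the air spaces: Mrc1, Marco, Csf2ra, Pparg, Chil3, Ear1, Ear2, Fabp1, Itgax and Car4. They were taken by symbol from the 24411 genes of the deposited tables, and all 10 were present. RNA sequencing of mouse lung tissue gave 23 libraries in 7 groups, all from C57BL/6 mice kept in barrier housing without treatment. At embryonic day 19.5 (E19.5), shortly before birth, there were 3 lungs with a deletion of Rarres1 (KO) and 3 wild-type (WT) lungs. At 10 months there were again 3 KO and 3 WT lungs. At 18 months there were 3 lung tumours of KO mice (numbered 1, 3 and 6), 5 non-tumour lungs of KO mice (numbered 1, 2, 3, 6 and 7) and 3 WT lungs. The mice of 10 and 18 months were male, and no sex was given for the embryos. How Rarres1 was deleted, and in which cells, is not given in the sources used here. In build GRCm38 the genes lie on 8 chromosomes: Mrc1 at chr2:14229414-14332023, Marco at chr1:120474538-120505024, Csf2ra at chr19:61217191-61228461, Pparg at chr6:115360879-115490404, Fabp1 at chr6:71199879-71205034, Itgax at chr7:128129526-128150657 and Car4 at chr11:84957754-84966054. Chil3 lies at chr3:106147554-106167564, and Ear1 and Ear2 lie on 1 chromosome, at chr14:43818765-43819639 and chr14:44102654-44103531.

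Libraries held 23.7 to 46.6 M counts (M, 1e6). Rarres1, the deleted gene, had 0 or 1 read in each of the 14 KO libraries and 24 to 64 reads in each WT library. The tissue label was read against lung epithelial markers: 6 genes of the alveolar type 2 cell, which makes surfactant, summed to between 16171 and 98491 counts per 1e6 counts (CPM) in every library. A list of 12 genes that macrophages of most tissues carry had reads for every gene in each of the 7 groups.

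Alveolar macrophages descend from fetal monocytes that enter the lung before birth and take on their adult identity in the first days of air breathing. The cytokine GM-CSF, made by the alveolar epithelium, acts on them through a receptor that includes the Csf2ra chain and induces the nuclear receptor PPARγ, the product of Pparg. The mature cells clear surfactant and inhaled particles, and they carry scavenger and lectin receptors such as those encoded by Marco and Mrc1. Several of the genes are also used by other lung cells: Car4 by a class of capillary endothelial cells, Mrc1 by interstitial macrophages, Itgax by dendritic cells, and Pparg by type 2 and fat cells.

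Ear1 and Ear2, which encode secreted eosinophil-associated ribonucleases, are near copies of each other, and this can bear on the values given for them. Their GENCODE transcripts are 713 and 719 bases long and 96.1% identical, and reads that match both have to be divided between them. The 250 bases before each start site show how far the likeness runs. Capitals mark bases that differ between the windows or have no partner in the other one; 246 positions are identical, 2 are substitutions and 4 are gap positions. The windows, read 5′ to 3′ along each gene in RefSeq GRCm38.p6, are chr14:43819640-43819889 on the minus strand for Ear1 and chr14:44102404-44102653 on the plus strand for Ear2.
Ear1: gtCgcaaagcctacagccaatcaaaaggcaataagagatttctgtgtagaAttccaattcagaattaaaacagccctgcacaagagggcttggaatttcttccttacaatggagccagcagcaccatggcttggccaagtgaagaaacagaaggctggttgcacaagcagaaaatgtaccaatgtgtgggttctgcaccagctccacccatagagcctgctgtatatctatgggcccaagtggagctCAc
Ear2: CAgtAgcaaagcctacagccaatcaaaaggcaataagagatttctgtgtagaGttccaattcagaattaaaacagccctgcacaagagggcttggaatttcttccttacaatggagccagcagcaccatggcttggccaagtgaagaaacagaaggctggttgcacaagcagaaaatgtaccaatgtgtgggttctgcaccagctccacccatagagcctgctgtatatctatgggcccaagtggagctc

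The start regions of the 10 genes were also read for 2 short motifs, because the genes share a cell type whose main lineage factor is PU.1 and because Pparg itself encodes a nuclear receptor. RefSeq gave 12 windows of 250 bases for the 10 genes, 3 of them for Pparg, which has several starts. The window of Csf2ra was set at a start inside the gene span given above. GAGGAA, the core of the PU.1 site, searched on both strands, lay in 5 of the 12 windows, 1 each of Mrc1, Marco, Csf2ra, Pparg and Fabp1. It lay in 23.3% of all 32851 windows of this length. AGGTCA, the half-site of nuclear receptors, lay in 3 of the 12 windows, those of Fabp1 and Pparg, and in 14.0% of all windows. These matches describe letters and not bound sites. The stretches around GAGGAA, or its reverse complement TTCCTC in Mrc1, are shown with the match in capitals. They lie at chr2:14229214-14229404 (plus strand) for Mrc1, chr1:120505145-120505190 (minus) for Marco, chr19:61228419-61228452 (minus) for Csf2ra, chr6:115362099-115362134 (plus) for Pparg and chr6:71199814-71199859 (plus) for Fabp1.
Mrc1: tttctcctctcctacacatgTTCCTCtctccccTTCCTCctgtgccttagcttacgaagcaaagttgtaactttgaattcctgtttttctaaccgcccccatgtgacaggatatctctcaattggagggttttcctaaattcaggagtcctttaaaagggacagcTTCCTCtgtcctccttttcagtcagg
Marco: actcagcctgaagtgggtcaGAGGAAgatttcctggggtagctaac
Csf2ra: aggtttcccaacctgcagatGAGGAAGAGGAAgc
Pparg: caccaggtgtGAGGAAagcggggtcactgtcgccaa
Fabp1: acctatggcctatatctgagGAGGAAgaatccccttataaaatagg

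In the 14 adult lungs without tumour, the secreted products Chil3 and Ear2 stood highest. Levels are compared between genes in FPKM, the deposited fragments per kilobase of transcript scaled to the library's depth, given as the lowest, median and highest lung. Chil3, which encodes a secreted chitinase-like lectin, had 361.6, 459.0 and 1095 FPKM. Ear2 had 156, 193 and 255 FPKM, and Car4, the gene of a membrane-anchored carbonic anhydrase, had 121, 142 and 182 FPKM. Chil3 stood above Ear2 in all of these lungs, while the ranges of Ear2 and Car4 overlapped. Ear1 followed with 47.1, 71.5 and 82.1 FPKM, below the whole range of Car4. Fabp1, which encodes a fatty acid binding protein best known from liver, had 9.35, 23.2 and 34.1 FPKM, below the whole range of Ear1.

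The receptors and the regulator stood lower and did not separate in order. Csf2ra had 14.8, 22.7 and 39.4 FPKM, and Itgax, the gene of the integrin chain CD11c, had 12.2, 17.3 and 31.0 FPKM. Mrc1, the gene of the mannose receptor CD206, had 11.1, 13.7 and 20.7 FPKM, and Pparg had 8.85, 10.0 and 15.3 FPKM. Marco, the gene of a scavenger receptor with a collagen-like stalk, had 2.76, 6.84 and 21.2 FPKM. Each of these ranges, and that of Fabp1, overlapped the next. Marco was also the least even of the 10: its highest adult lung was 7.67 times its lowest, against 3.64 times for Fabp1, 3.03 times for Chil3 and 1.50 times for Car4. At E19.5 the order was another one, with Ear2 first in KO and in WT lungs.

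**Figure D1:**
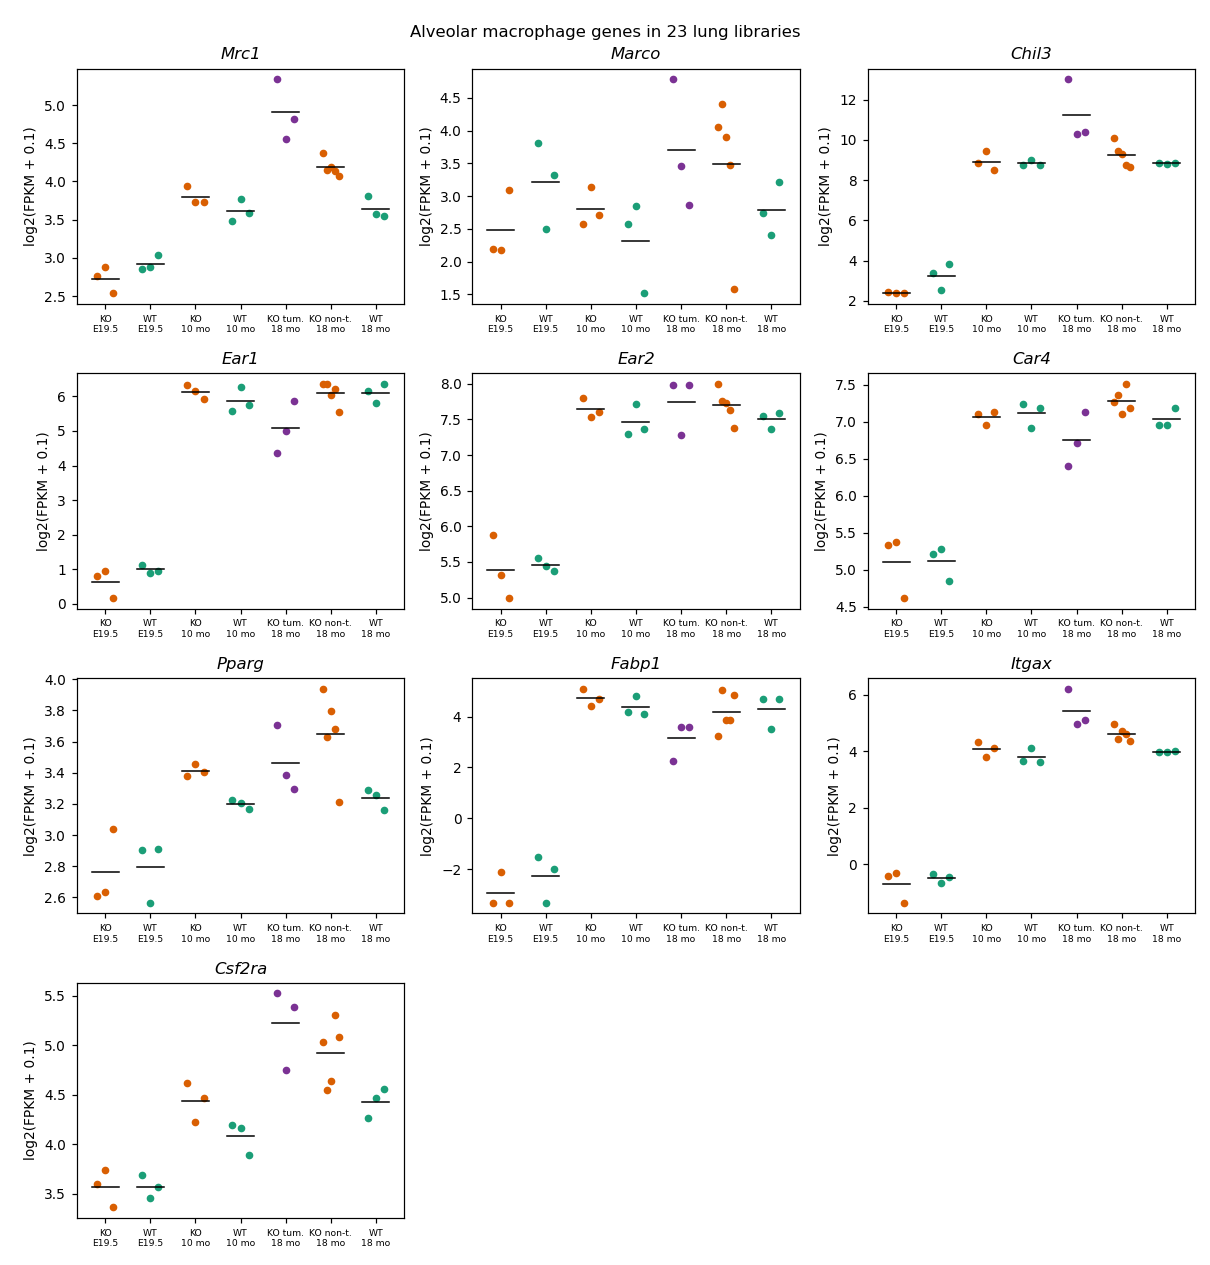
Level of each gene in every library as log2(FPKM + 0.1), 1 panel a gene; points are libraries, bars are group means, and each vertical axis has its own range. Chil3, Ear1, Itgax and Fabp1 sit far lower at E19.5 than at any later age. For Chil3, Mrc1 and Itgax every KO tumour stands above every other library.

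Between E19.5 and 10 months, 8 of the 9 genes with more than 3 embryonic reads rose in KO lungs and the same number in WT lungs, and Marco was the exception in both. Fabp1 was called too, but it passed the filter on low counts only through the adult lungs, so that its call was bound to the filter and is not counted here. The largest rises of the 8 were those of Chil3, Ear1 and Itgax. Genes were tested with edgeR's quasi-likelihood test and called at a Benjamini-Hochberg adjusted p under 0.05 over all genes tested, which holds for every adjusted p below unless another tool is named. Of all genes tested, 31.1% were called higher in KO and 31.6% in WT, so calls are frequent in this comparison. The groups did not overlap for the 8 genes, as for 34.9% of all genes in KO and 35.3% in WT. The median log2 fold change of the 9 genes was 1.97 in KO and 2.06 in WT, against 0.00 in both for all genes. Bulk lung RNA was sequenced, so more macrophages, more RNA per macrophage and RNA of other lung cells cannot be told apart.

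Chil3 had 460.0, 689.9 and 361.6 FPKM in KO lungs at 10 months, against 5.26, 5.20 and 5.06 FPKM in KO lungs at E19.5. In WT lungs it had 429.7, 520.5 and 430.0 FPKM at 10 months, against 10.1, 5.72 and 14.0 FPKM at E19.5. Every adult lung stood far above every embryonic lung of its genotype. The log2 fold change was 6.66 ± 0.30 in KO (SE; adjusted p 4.84e-06) and 5.59 ± 0.39 in WT (adjusted p 1.71e-04). The other secreted pair behaved unequally. Ear1 rose by 5.60 ± 0.19 in KO (adjusted p 3.38e-07) and 5.04 ± 0.23 in WT (adjusted p 7.11e-07), and Ear2 by 2.26 ± 0.20 in KO (adjusted p 9.31e-05) and 2.08 ± 0.13 in WT (adjusted p 2.44e-06). With the reads of both added, the rise was 2.65 ± 0.21 in KO and 2.43 ± 0.14 in WT.

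Fabp1 had 34.1, 21.1 and 25.5 FPKM in KO lungs at 10 months, against 0, 0.13 and 0 FPKM in KO lungs at E19.5. In WT it had 17.8, 27.9 and 17.1 FPKM at 10 months, against 0.25, 0 and 0.15 FPKM at E19.5. It was thus close to absent before birth. Over the 3 lungs of a group there were 696 reads at 10 months against 1 at E19.5 in KO, and 535 against 3 in WT. Scaled to depth, the ratio was 628 in KO, with an exact 95% binomial interval of 112 to 24849, and 158 in WT, with an interval of 53.8 to 769. These intervals cover counting error only.

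Itgax, with 20.3, 13.8 and 17.4 FPKM in KO lungs at 10 months, had 0.65, 0.70 and 0.29 FPKM in KO lungs at E19.5. In WT it had 12.7, 17.3 and 12.2 FPKM at 10 months and 0.69, 0.54 and 0.64 FPKM at E19.5. No adult lung came near an embryonic one. It rose 32.2-fold in KO (log2 5.01 ± 0.28, adjusted p 1.26e-05) and 23.3-fold in WT (log2 4.54 ± 0.19, adjusted p 4.15e-07). Car4 rose 3.93-fold in KO and 4.16-fold in WT, on log2 scales 1.97 ± 0.18 and 2.06 ± 0.12.

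The receptors and the regulator moved less. Mrc1 rose by 1.14 ± 0.10 in KO (adjusted p 2.30e-05) and 0.76 ± 0.10 in WT (adjusted p 1.08e-04). Csf2ra rose 1.90-fold in KO (log2 0.93 ± 0.12, adjusted p 2.42e-04) and 1.50-fold in WT (log2 0.58 ± 0.11, adjusted p 0.00123). Pparg rose 1.58-fold in KO (log2 0.66 ± 0.14, adjusted p 0.00351) and 1.34-fold in WT (log2 0.42 ± 0.13, adjusted p 0.0166). The WT call of Pparg was lost when all 23 libraries were fitted together (adjusted p 0.0508), and its adjusted p lay between 0.0110 and 0.0508 over the alternatives.

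Marco was already present before birth at levels that overlapped those of the adult. It had 5.85, 8.75 and 6.42 FPKM in KO lungs at 10 months, against 4.45, 4.42 and 8.46 FPKM in KO lungs at E19.5. In WT it had 5.85, 7.10 and 2.76 FPKM at 10 months, against 14.0, 5.57 and 9.95 FPKM at E19.5. The ages overlapped in both genotypes. The log2 fold change was 0.33 ± 0.31 in KO (adjusted p 0.390) and -0.85 ± 0.51 in WT (adjusted p 0.207). Without KO E19.5 lung 3 the KO difference was 0.73 and was called (adjusted p 0.0105, against up to 0.753 over the alternatives).

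**Figure D2:**
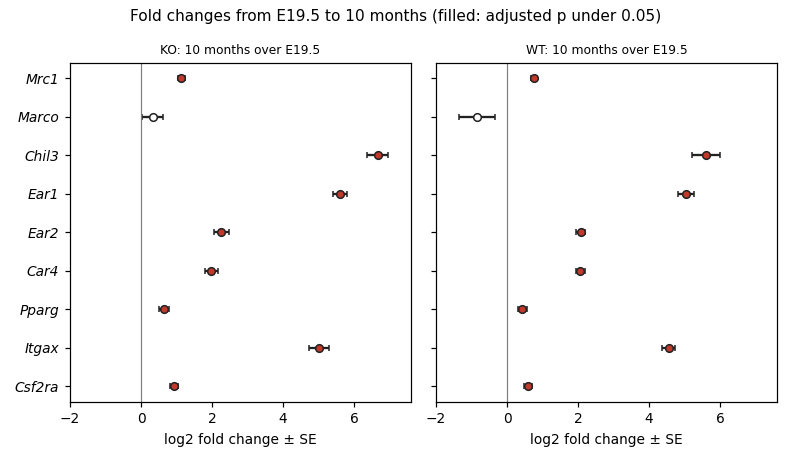
Log2 fold change of 10 months over E19.5 with its SE for 9 of the genes, KO on the left and WT on the right; filled points passed an adjusted p of 0.05. Fabp1, with 1 and 3 embryonic reads, is not drawn. All genes shown but Marco are filled in both genotypes, from Pparg at 0.66 in KO and 0.42 in WT up to Chil3 at 6.66 and 5.59.

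Other genes of the alveolar macrophage programme moved in both directions. Of 25 tested, 16 were called higher and 4 lower in KO, and 17 were called higher and 4 lower in WT, with medians of 0.81 and 0.64. Atp6v0d2, a subunit of the vacuolar proton pump, rose by 4.44 ± 0.14 in WT, and Siglecf, a sialic acid receptor used to sort these cells, by 4.42 ± 0.20. In KO, Ctsk, a lysosomal protease, rose by 3.06 ± 0.11. Csf2, which encodes GM-CSF, was among the 4 lower genes in both genotypes, with Fabp5, Msr1 and Cebpb. Markers of other leukocytes were also higher at 10 months. Of the 12 genes shared by most macrophages 10 were called higher in KO and 9 in WT, with 1 lower in each, Fcgr1. Their summed level was 6507 to 8084 CPM in KO at 10 months against 1171 to 1817 CPM in KO at E19.5, and 6370 to 8406 CPM in WT at 10 months against 1347 to 2144 CPM in WT at E19.5. Lyz2 carried most of this level at E19.5, with means of 1158 CPM in KO and 1383 CPM in WT, and which cells carried it was not tested. Of 13 interstitial macrophage and monocyte genes 10 were called higher in KO and 6 in WT. Of 8 dendritic cell genes 6 and 7 were, where 4 of the 8 were too low to test among the embryonic lungs alone. Of 7 genes of the capillary endothelial cells that use Car4, 1 was called higher and 3 lower in KO, and 3 higher and 2 lower in WT. The part of these cells in the rises above was not tested.

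The KO and WT lungs at E19.5 were set against each other to ask whether the loss of Rarres1 touches these genes before birth. None of the 9 genes that could be tested was called (0% of all 15307 genes were), and Fabp1 was too low to test. DESeq2 and limma also called none. At an unadjusted p under 0.05 there was 1, Chil3, beside 0.941% of all genes. The 3 KO lungs, listed above at 5.06 to 5.26 FPKM, all stood below the 3 WT lungs, the lowest of which had 5.72 FPKM. Genes that did not overlap in this direction made up 2.17% of all. The log2 fold change was -0.92 ± 0.29 (unadjusted p 0.0145, adjusted p 1.00). Marco gave -0.75 ± 0.42, and the other 7 lay within 0.31 of 0. Of 13 interstitial macrophage and monocyte genes 13 lay below 0 (median -0.32). Of the 12 genes shared by most macrophages 11 did (median -0.22), and none of either list was called. The median over all genes was 0.00. Genes that share cells move together, so these counts are not separate observations. The lists summed to 300.3 to 414 CPM in KO against 390.0 to 446 CPM in WT, and to 1171 to 1817 CPM in KO against 1347 to 2144 CPM in WT. Lyve1 carried much of the interstitial and monocyte sum, with means of 219 CPM in KO and 230 CPM in WT. Lyz2 carried most of the other sum, with means of 1158 CPM in KO and 1383 CPM in WT, and which cells carried it was not tested. The part of these cells in the values of Chil3 and Marco was not tested.

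At 10 months the same question was put to adult lung. None of the 10 genes was called, beside 1.52% of all genes, and 2 had an unadjusted p under 0.05, beside 17.4%; DESeq2 and limma called none. The log2 fold change was above 0 for 9 of the 10, where 49.9% of all genes were above 0, and the median was 0.23. Genes that share cells move together, so these are not 9 separate observations. Csf2ra had 24.4, 18.6 and 22.0 FPKM in KO lungs, against 18.2, 17.9 and 14.8 FPKM in WT lungs. Pparg had 10.3, 10.9 and 10.5 FPKM in KO lungs, against 9.25, 9.12 and 8.88 FPKM in WT lungs. Both stood higher in every KO lung than in every WT lung, as 12.7% of all genes did. Their log2 fold changes were 0.35 ± 0.11 (adjusted p 0.154, and 0.0805 to 0.773 over the alternatives) and 0.22 ± 0.08 (adjusted p 0.197). The other 8 lay between -0.06 ± 0.09 for Car4 and 0.42 ± 0.38 for Marco.

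At 18 months KO non-tumour lung was set against WT lung. None of the 10 genes was called by edgeR, where 12 genes in all were, or 0.0776%. The log2 fold change was above 0 for 8 of the 10, where 49.5% of all genes were, and the median was 0.42. Mrc1 had 20.7, 17.6, 18.1, 17.5 and 16.7 FPKM in KO non-tumour lungs, against 13.9, 11.8 and 11.6 FPKM in WT lungs. Itgax had 31.0, 21.3, 26.5, 24.3 and 20.6 FPKM in KO non-tumour lungs, against 15.7, 15.5 and 15.9 FPKM in WT lungs. For both genes every KO lung stood above every WT lung, as for 3.41% of all genes. By their codes, KO non-tumour lungs 1, 3 and 6 came from animals that also gave a tumour. The part of a tumour in the same animal was not tested. Mrc1 gave 0.50 ± 0.11 (adjusted p 0.192) and Itgax 0.62 ± 0.14 (adjusted p 0.229). DESeq2, which called 0.807% of all genes, called both of them (adjusted p 0.00957 for Mrc1 and 0.0143 for Itgax), and over all alternatives the adjusted p reached 0.766 for each. In all, 4 of the 10 genes had an unadjusted p under 0.05, beside 8.04% of all genes. Csf2ra gave 0.46 ± 0.15 (adjusted p 0.435), Chil3 0.47 ± 0.31, Marco 0.90 ± 0.50 and Pparg 0.37 ± 0.17. Ear1 and Fabp1 were the 2 below 0, at -0.06 ± 0.21 and -0.16 ± 0.41.

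Among the 12 genes shared by most macrophages, none was called in either adult comparison of genotypes. Their log2 fold changes were above 0 for 8 at 10 months and for 11 at 18 months. Lists that include the other cells that carry Mrc1 and Itgax were also mostly above 0 at 18 months, with none of their genes called. These were 11 of 13 interstitial macrophage and monocyte genes (median 0.27) and 6 of 8 dendritic cell genes (median 0.44). The interstitial and monocyte genes summed to 449 to 917 CPM in KO non-tumour lung against 565 to 617 CPM in WT. The dendritic cell genes summed to 91.4 to 119 CPM in KO non-tumour lung against 82.5 to 101 CPM in WT. In the same comparison 6 of 6 mitosis genes were above 0 (median 0.69) and 6 of 6 heart muscle genes below 0 (median -1.87). The part of these cells was not tested. Cd68, a lysosomal glycoprotein of macrophages, gave 0.35 ± 0.08 at 10 months (adjusted p 0.0837) and 0.63 ± 0.19 at 18 months (adjusted p 0.386). Within the other alveolar macrophage genes, the transcription factor gene Bhlhe41 was the 1 called at both adult ages, at 40.9 ± 7.03 CPM in KO against 13.6 ± 1.78 CPM in WT at 10 months (SD, n = 3 each; adjusted p 0.00278). Its partner Bhlhe40 gave 0.96 ± 0.16 at 10 months (adjusted p 0.0531) and 1.05 ± 0.17 at 18 months (adjusted p 0.0836). Bulk lung RNA was sequenced, and which cells carried the differences of Bhlhe41 and Bhlhe40 was not tested.

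The difference of the genotype effect between ages was tested as an interaction. Between 10 months and E19.5 none of the 10 genes was called, beside 0.156% of all genes. Mrc1 had the lowest adjusted p, with a difference of 0.38 ± 0.14 (adjusted p 0.568), and Chil3 was the other of the 10 with an unadjusted p under 0.05, beside 7.6% of all genes; DESeq2 called none. The differences were widest for Marco, at 1.18 ± 0.63, and Chil3, at 1.07 ± 0.45, among the 9 genes with more than 3 embryonic reads. Between 18 and 10 months none was called by edgeR or DESeq2, beside 0% of all genes in edgeR, and 0 of the 10 had an unadjusted p under 0.05, beside 2.89% of all genes.

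Age in adult life was compared within each genotype. None of the 10 genes was called between 18 and 10 months in KO non-tumour lung or in WT lung, where 0% of all genes were called in both. DESeq2 and limma called none. At an unadjusted p under 0.05 there were 3 in KO, beside 5.06% of all genes, and 1 in WT, beside 5.44%. Mrc1 gave 0.36 ± 0.10 in KO, and each KO lung of 18 months listed above stood over each KO lung of 10 months, which had 15.2, 13.2 and 13.2 FPKM. Genes that did not overlap in this direction made up 2.22% of all. KO non-tumour lungs 1, 3 and 6 came, by their codes, from animals that also gave a tumour, and the part of this was not tested. In the same comparison 10 of 13 interstitial macrophage and monocyte genes were above 0 (median 0.55), as were 6 of 6 mitosis genes (median 0.69). Of heart muscle genes 6 of 6 were below 0 (median -1.82). None of these listed genes was called, where the median over all genes was 0.00, and their part was not tested. Csf2ra gave 0.35 ± 0.10 in WT, with 19.2, 22.0 and 23.4 FPKM at 18 months, all above the 3 lungs of 10 months, as for 5.69% of all genes.

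In the KO tumours of 18 months, Chil3, Itgax and Mrc1 were higher than in KO non-tumour lung and passed the test. Called higher were 3 of the 10 genes, beside 7.2% of all genes, and none was called lower, beside 6.6%. The groups did not overlap for the 3, as for 10.6% of all genes. The median log2 fold change of the 10 was 0.21, against -0.01 over all genes, and without tumour 1 it was -0.11. The tumours came from animals 1, 3 and 6, which by their codes also gave non-tumour lung, and with the animal as a block 0 of the 10 genes were called, beside 0.883% of all genes.

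Chil3 had 8324, 1251 and 1339 FPKM in tumours 1, 3 and 6, against 1095, 709.5, 627.2, 431.4 and 403.2 FPKM in non-tumour lungs 1, 2, 3, 6 and 7. Tumour 1 stood far above all others, and the other 2 tumours above every non-tumour lung. In TMM-scaled CPM the means were 5221 ± 5930 in tumours and 872 ± 399 in non-tumour lung (SD, n = 3 and 5), a log2 fold change of 2.58 ± 0.64 (adjusted p 0.0302). Without tumour 1 it was 1.08 ± 0.37 (adjusted p 0.113). Leaving out non-tumour lung 2, 3, 6 or 7 also ended the call, with adjusted p between 0.0646 and 0.0689. With the animal as a block it was 1.91 ± 0.46 (adjusted p 0.0935). In limma on FPKM it was not called either (adjusted p 0.0789 and 0.0939 with the pseudocounts 0.1 and 1). Over the alternatives the adjusted p ran from 3.66e-04 to 0.162. DESeq2 gave Chil3 no p and is not among them.

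Mrc1 had 40.4, 23.4 and 28.2 FPKM in tumours 1, 3 and 6, and the 5 non-tumour lungs, given above, had at most 20.7 FPKM. All 3 tumours stood above all 5 lungs. The means were 166 ± 49.8 CPM in tumours and 91.9 ± 9.90 CPM in non-tumour lung, a log2 fold change of 0.85 ± 0.18 (adjusted p 0.0154). Mrc1 was called with any single library left out. Without tumour 1 it gave 0.61 ± 0.13 (adjusted p 0.0260) and was then the only one of the 10 genes called, beside 8.25% of all genes. With the animal as a block it was 0.74 ± 0.17 (adjusted p 0.0874, and up to 0.111 over the alternatives).

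Itgax had 74.4, 31.1 and 34.3 FPKM in tumours 1, 3 and 6, against 31.0 FPKM in the highest non-tumour lung, number 1. Tumour 3 thus cleared that lung by a narrow margin, while tumour 1 stood apart. The means were 189 ± 102 CPM in tumours and 93.8 ± 18.1 CPM in non-tumour lung, a log2 fold change of 1.01 ± 0.29 (adjusted p 0.0475). Without tumour 1 it was 0.51 ± 0.18 (adjusted p 0.122), and leaving out any 1 of the 5 non-tumour lungs gave an adjusted p between 0.0593 and 0.105. With the animal as a block it was 0.73 ± 0.24 (adjusted p 0.157, and up to 0.225 over the alternatives). In limma on FPKM it was not called (adjusted p 0.0973 and 0.114).

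The other genes were not called in the tumours, and of these Ear1 and Car4 had an unadjusted p under 0.05. Ear1 had 20.6, 31.8 and 58.4 FPKM in tumours 1, 3 and 6, against 82.1, 81.4, 65.4, 74.7 and 47.1 FPKM in non-tumour lungs 1, 2, 3, 6 and 7. The groups overlapped through non-tumour lung 7 alone. The log2 fold change was -0.89 ± 0.30 (adjusted p 0.0856). Car4 had 85.0, 105 and 140 FPKM in the tumours, against 138 to 182 FPKM in non-tumour lung, and gave -0.44 ± 0.15 (adjusted p 0.0893). DESeq2, which called 17.8% of all genes, called both lower (adjusted p 0.0276 for Ear1 and 0.0420 for Car4), as did the fit over all 23 libraries (0.0102 and 0.0341) and the fit without tumour 6 (0.0131 and 0.0237). Over the alternatives that fitted each gene by itself, the adjusted p reached 0.250 for Ear1 and 0.339 for Car4. With the reads of Ear1 and Ear2 added it was 0.871. Fabp1 gave -1.0 ± 0.46 (adjusted p 0.188), Csf2ra 0.40 ± 0.20 (adjusted p 0.224), Ear2 0.14 ± 0.20 (adjusted p 0.703), Pparg -0.11 ± 0.20 (adjusted p 0.753) and Marco 0.28 ± 0.60 (adjusted p 0.796).

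**Figure D3:**
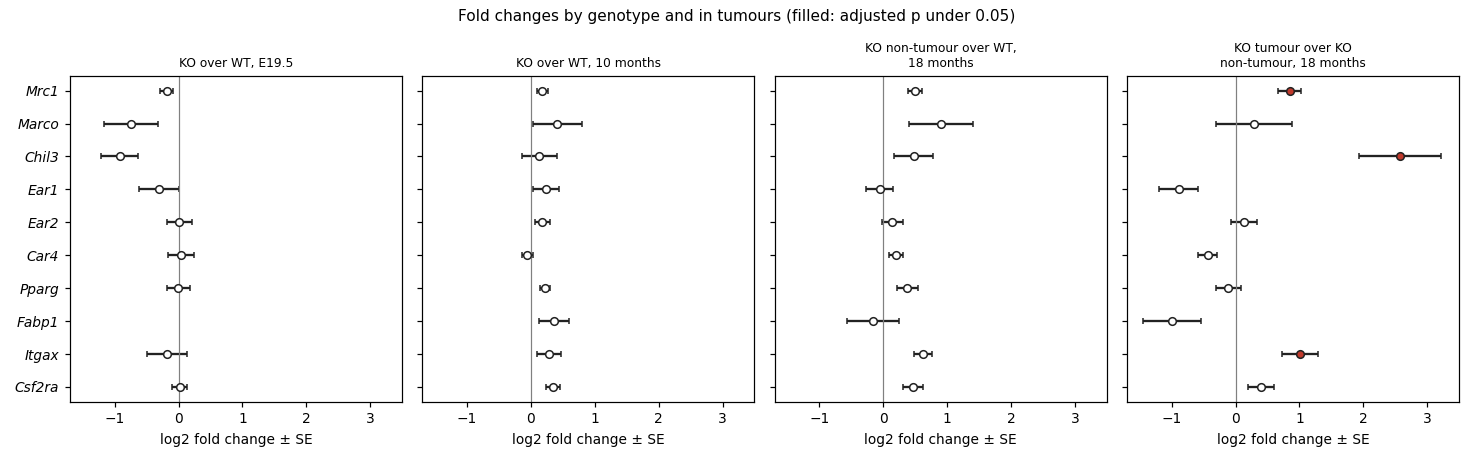
Log2 fold change with its SE for KO over WT at E19.5, 10 and 18 months, and for KO tumour over KO non-tumour lung; filled points passed an adjusted p of 0.05 in edgeR. The 3 filled points, all in the tumour panel, are Chil3 at 2.58, Itgax at 1.01 and Mrc1 at 0.85; Fabp1 was not tested at E19.5.

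Within the 3 animals that gave both tissues, the 10 genes went different ways. Higher in the tumour of every animal were 4, beside 22.2% of all genes: Chil3, Mrc1, Itgax and Csf2ra. The ratio of tumour to own non-tumour lung in animals 1, 3 and 6 was 8.06, 2.17 and 3.17 for Chil3, 2.07, 1.40 and 1.65 for Mrc1, 2.55, 1.27 and 1.45 for Itgax, and 1.49, 1.17 and 1.08 for Csf2ra. Animal 1 had the highest ratio for each of these. Another 4 were lower in the tumour of every animal, beside 23.9% of all genes: Ear1, Car4, Pparg and Fabp1. Ear1 had ratios of 0.265, 0.530 and 0.785, Car4 of 0.585, 0.826 and 0.780, Pparg of 0.915, 0.799 and 0.782, and Fabp1 of 0.528, 0.893 and 0.813. Ear2 and Marco were mixed. With 3 animals a sign test over animals cannot reach 0.05, and these ratios are given as values.

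**Figure D4:**
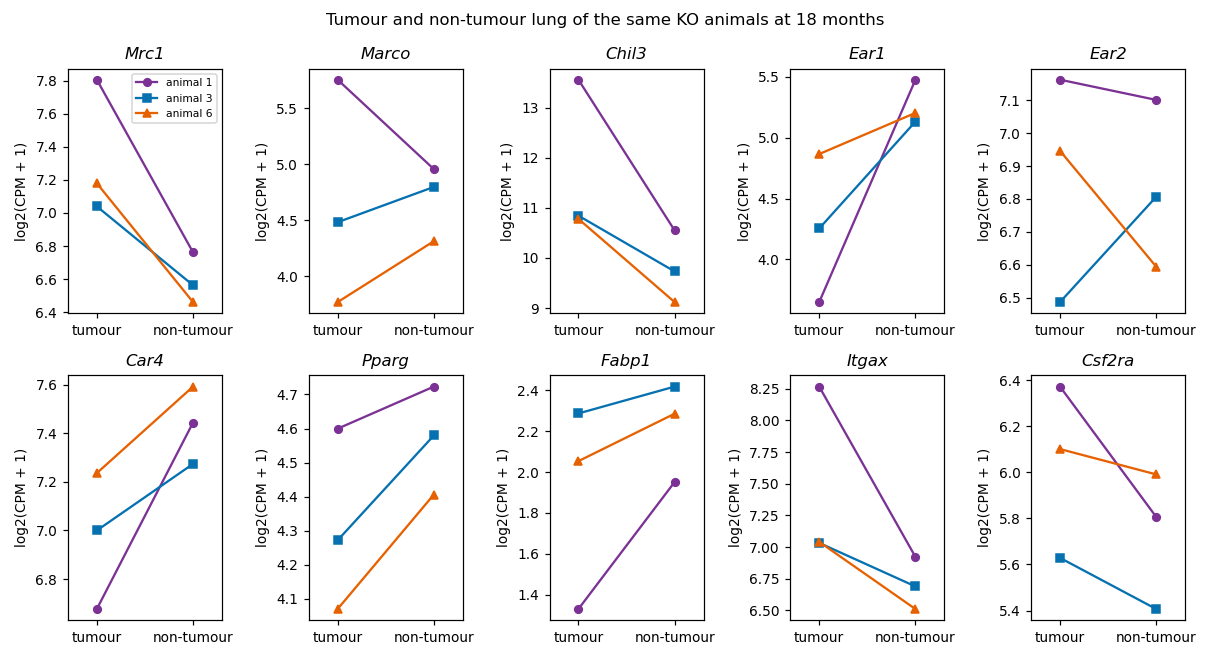
Level of each gene in tumour and own non-tumour lung of KO animals 1, 3 and 6 as log2(CPM + 1); each line joins the 2 samples of 1 animal, and each vertical axis has its own range. Lines for Mrc1, Chil3, Itgax and Csf2ra all stand higher at the tumour, and lines for Ear1, Car4, Pparg and Fabp1 all stand lower there.

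The unequal behaviour of Ear1 and Ear2 was read from their share of the pair's reads, a measure taken up after their values were seen. Ear1 took 7.50%, 16.9% and 18.7% of the reads of the pair in tumours 1, 3 and 6, against 24.2%, 27.2%, 23.5%, 27.3% and 21.9% in non-tumour lungs 1, 2, 3, 6 and 7. All tumours stood below all non-tumour lungs. The means were 14.4% ± 6.03 and 24.8% ± 2.35 (SD, n = 3 and 5). In each of animals 1, 3 and 6 the tumour stood below the animal's own non-tumour lung. No test is given, since the share was chosen on these values and the libraries share animals. The reads of both genes added gave a log2 fold change of -0.06 ± 0.20 in the tumours (adjusted p 0.871). At E19.5 the share was 2.69% to 4.39% in KO and 3.86% to 4.24% in WT, and at 10 months it was 23.7% to 27.5% in KO and 23.4% to 26.8% in WT. Fractional counts, from reads shared between genes, occurred for the pair in 8 libraries. How the counting divided reads between the near copies can change this share, and its part was not tested.

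**Figure D5:**
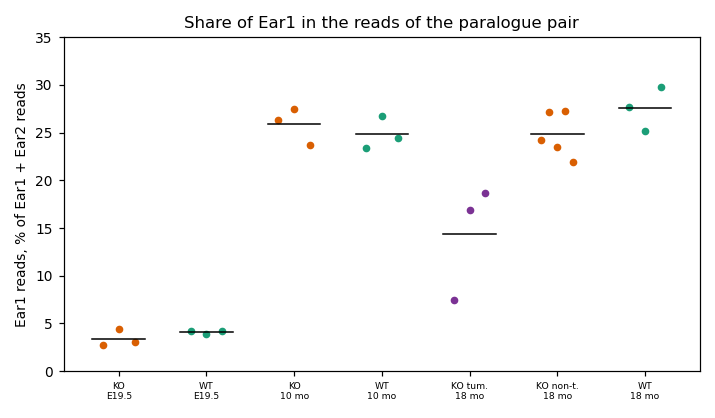
Ear1 reads as a percentage of Ear1 and Ear2 reads in each library; points are libraries and bars group means. The KO tumours lie between 7.50% and 18.7%, adult non-tumour lungs between 21.9% and 29.8%, and embryonic lungs below 5%.

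Marker lists for other cells and states were read beside the tumour values. Of 26 other alveolar macrophage genes tested, 5 were called higher and 1 lower, and the median was 0.65, or 0.22 without tumour 1. The lower one was Krt79, a keratin gene of the resident cells, with 3.57, 5.76 and 6.77 CPM in tumours 1, 3 and 6 against 11.7 to 38.6 CPM in non-tumour lung (log2 -2.24 ± 0.40, adjusted p 0.00830). Its call held without tumour 1 (adjusted p 0.0262) and not with the animal as a block (adjusted p 0.0811). Bhlhe40 had 309, 215 and 184 CPM in the tumours against 70.2 to 124 CPM (log2 1.21 ± 0.22, adjusted p 0.00836; 0.0203 without tumour 1 and 0.0736 with the block). The other 4 higher ones were Ear6 (log2 2.42 ± 0.61), the scavenger receptor gene Msr1 (1.99 ± 0.51), Csf2rb2 (0.99 ± 0.26) and Atp6v0d2 (1.33 ± 0.38). Ear6, at 1.75 ± 1.08 CPM in tumours and 0.331 ± 0.235 CPM in non-tumour lung, was too low to test in every comparison without tumours, so that its call was bound to the filter. Without tumour 1 the list had 1 call in each direction, and with the block none. Siglecf had 14.6, 15.1 and 18.2 CPM in tumours against 14.5 to 27.5 CPM in non-tumour lung, and the groups overlapped.

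Of the 12 genes shared by most macrophages, Cd14 (1.44 ± 0.20, adjusted p 0.00313) and Mpeg1 (0.72 ± 0.19, adjusted p 0.0355) were called higher. Without tumour 1 there was 1 call, and with the animal as a block 0. Their list summed to 9223 to 21299 CPM in tumours and 5027 to 11032 CPM in non-tumour lung. These sums lean on Lyz2, which averaged 6088 CPM over the 23 libraries. Type 2 cell genes also stood higher in the tumours, and which cells carried Lyz2 was not tested. Among 6 genes of alternative activation, the state that interleukin 4 induces in mouse macrophages and that Chil3 and Mrc1 are also known for, 3 were called higher. Retnla, a secreted resistin-like protein, had 2434, 257 and 323 CPM in tumours against 19.5 to 118 CPM (log2 4.43 ± 0.89, adjusted p 0.0131). It was the 1 gene of this list still called with the animal as a block (3.52, adjusted p 0.0486). At E19.5 Retnla averaged 231 CPM in KO and 279 CPM in WT lungs, where Chil3 averaged 6.76 CPM in KO and 12.8 CPM in WT. The cells that carried Retnla were not tested for. Arg1, the arginase gene, had 93.8 CPM in tumour 1 and 2.04 and 2.01 CPM in tumours 3 and 6, so that its call (4.16 ± 1.09, adjusted p 0.0358) rested on tumour 1, without which it gave 0.19 (adjusted p 0.753). Il4ra, a chain of the interleukin 4 receptor, gave 0.53 ± 0.12 (adjusted p 0.0216). Without tumour 1 the list had 2 calls.

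Markers of other cells moved with the tumours. Type 2 cell genes were called higher for 6 of 6 and summed to 41878 to 98491 CPM in tumours against 16635 to 27660 CPM in non-tumour lung. Capillary endothelial genes, the other main source of Car4, lay below 0 for 7 of 7, were called lower for 2 (Chst1 and Fibin) and summed to 374 to 969 CPM against 948 to 1298 CPM. Of 6 adipocyte genes 3 were called lower, of 6 neutrophil genes 2, and of 4 eosinophil genes 1. Of hepatocyte genes, from the main source of Fabp1 elsewhere, Alb and Ahsg were called higher; Apoa1 was called too, but it was too low to test in every comparison without tumours. The eosinophil genes summed to 1.72 to 13.1 CPM in tumours and 5.21 to 16.8 CPM in non-tumour lung, and the hepatocyte genes to 8.47 to 42.4 CPM in tumours and 1.73 to 2.47 CPM in non-tumour lung. Of 8 dendritic cell genes 1 was called higher, and of 13 interstitial macrophage and monocyte genes 0. None of 6 heart muscle genes or of 6 mitosis genes was called. Without tumour 1, 5 type 2 cell genes, 1 endothelial, 2 adipocyte, 2 neutrophil and 2 hepatocyte genes were called. With the animal as a block, 1 hepatocyte and 1 adipocyte gene were. The part of these cells in the tumour values was not tested.

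Within groups, not all 10 genes varied together. Over the 23 libraries, with each library taken as its deviation from its group mean on the log2(CPM + 1) scale, the correlation between pairs of the 10 genes had a median r of 0.227 and ran from -0.455 to 0.882. It is given as a description, since the libraries share groups and depth. The closest pairs were Mrc1 with Itgax (r = 0.882, and 0.768 over the 20 libraries without tumours), Marco with Pparg (0.854, and 0.818) and Mrc1 with Chil3 (0.817, and 0.589). Car4 with Pparg was the most opposed (-0.455, and -0.320). The genes outside the 10 whose deviations were most like the mean of the 10 were Apobr (0.877), Abhd12 (0.876), C1rl (0.852), Tbc1d13 (0.835), Lyz2 (0.829), Slc15a3 (0.827), Emb (0.818) and Ctss (0.814), among 13653 genes with a median r of 0.00. Without tumours these 8 lay between 0.777 for Ctss and 0.892 for Abhd12.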

How the data were processed

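Bulk RNA of 23 lung libraries in 7 groups was analysed. The authors deposited expected counts per gene and FPKM (2 decimals). Named in the submitters' processing notes are mm10, RSEM 1.3.0, STAR 2.5.2b and Trimmomatic 0.36. Expected counts were rounded, and edgeR 4.0.16 (R 4.3.3) was fitted to the groups of each of 8 comparisons, over all genes, with TMM scaling, filterByExpr, the robust quasi-likelihood test and Benjamini-Hochberg adjustment. Fold changes carry a prior count of 0.125, and the SE is the absolute log2 fold change over the square root of F. CPM values are TMM-scaled. Interactions (2) used a fit over 4 groups. Alternatives were DESeq2 1.42.0, limma 3.58.1 on log2(FPKM + 0.1 or 1), no filter, one fit over all libraries, each library left out and a replicate block; Ear1 and Ear2 added, paired libraries without the block and the lists without tumour 1 were chosen after seeing the data. Python 3.11.15, scipy 1.17.1 and matplotlib 3.10.9 did the rest. The scripts were tested on simulated data.

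The 10 genes and the 13 lists beside them (118 of 119 genes in the table) were chosen with earlier results of these data known. The genes named are all 10, up to 4 of each list by smallest p, and the 8 genes most like the mean of the 10 with at least 2 CPM on average; further names were chosen after their values were seen. The labels give tumours 1, 3 and 6 the animal codes of the non-tumour lungs with these numbers, which makes them pairs; their deviations correlated at 0.457, 0.0128 and 0.0617. For non-tumour lungs 6 and 7 the titles also carry the running numbers 4 and 5; the codes were used, and the pair of animal 6 rests on that choice. Elsewhere the numbers do not pair. The titles name each library by a numbered embryo or male. Nothing else describes the replicates, so every p measures only how far these samples spread, which may be partly technical. Depth was 23.7 to 46.6 M counts (M, 1e6) a library. Fractional counts, from reads shared between genes, occurred for Ear1 and Ear2 in 8 libraries, for Chil3 in 7 and for Itgax in 20. Whether counting used strand is not given in the sources used here.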

Additional observations from a re-analysis of the deposited data

How the results depend on the processing

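Of the fold changes recomputed under other settings, 1334 kept their direction and their side of the threshold, 22 lost a call, 10 gained one and 66 turned direction. In KO tumours against KO non-tumour lung, the 3 genes called higher became 1 with limma on either pseudocount, 1 to 3 with single libraries left out, 0 with the animal as a replicate block and 0 with the paired libraries without a block; the 0 called lower became 2 with DESeq2, 2 in the fit over all 23 libraries and 0 to 2 with single libraries left out. DESeq2 gave no p for Chil3 there, adjusted or not, and called Mrc1 and Itgax higher (adjusted p 3.36e-04 and 0.00815). At 18 months KO non-tumour against WT gave 2 higher with DESeq2, against 0. With a replicate block, 1 gene (Marco, 1.33, adjusted p 0.0425) was higher at 18 than at 10 months in KO, against 0; the numbers do not pair those libraries. The fits with the block or the paired libraries hold fewer libraries; otherwise the cause was not tested.

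The direction changed in 66 recomputed values, all of genes not called. At E19.5 (KO over WT) these were Ear2 in limma (-0.0661 and -0.0638), with the block (-0.0279) and with Ear1 added (-0.00364), Car4 in limma (-0.00493 and -0.00403) and Pparg in the fit over all libraries (4.73e-04). At 18 months (KO over WT) Ear1 gave 0.13 with the block, 0.12 with the paired libraries and 0.0913 with Ear2 added. In tumours Marco gave -0.0387 with the block and Ear2 -0.0603 with Ear1 added. For age, in limma with the pseudocounts 0.1 and 1, WT Chil3 gave -4.34e-04 and -4.44e-04 and WT Fabp1 -0.0724 and -0.0660, and KO Ear1 gave 0.13 with the block, 0.12 with the paired libraries and 0.00568 with Ear2 added.

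With single libraries left out, log2 ranges that crossed 0 were, at E19.5, Ear2 -0.26 to 0.18, Car4 -0.0861 to 0.24, Pparg -0.17 to 0.0770, Itgax -0.39 to 0.11 and Csf2ra -0.0629 to 0.10; at 10 months Chil3 -0.18 to 0.33; at 18 months Ear1 -0.20 to 0.0778 and Fabp1 -0.46 to 0.0247; in tumours Marco -0.45 to 0.64 and Pparg -0.24 to 0.00566. For age they were, in WT, Mrc1 -0.0635 to 0.12, Chil3 -0.0466 to 0.11, Ear2 -0.0233 to 0.21 and Fabp1 -0.15 to 0.33, and in KO, Ear1 -0.15 to 0.0872 and Ear2 -0.0777 to 0.12. For the interactions they were Car4 -0.29 to 0.0434 between 10 months and E19.5 and Ear2 -0.18 to 0.0627 between 18 and 10 months. At E19.5 Fabp1 held 1 read over the KO and 3 over the WT lungs, too few to test between genotypes.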
